A study of Mus musculus with 6 samples.

Results

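The 10 genes described here belong to the Bcl2 family, whose proteins decide whether mitochondria release the factors that start apoptosis. They were Bcl2, Bcl2l1, Mcl1 and Bcl2a1b on the anti-apoptotic side, Bax and Bak1 as pore-forming effectors, and Bcl2l11, Bid, Bbc3 and Pmaip1 as BH3-only genes. They were chosen by name, as a list of Bcl2 family genes, and found by gene identifier among the 53379 identifiers of the count files. All 10 were found and all 10 passed the expression filter, together with 14555 genes in all. The question was how anti-apoptotic and pro-apoptotic transcripts were balanced in follicular helper T (Tfh) cells of control (CTL) mice, and whether that balance differed in Prdm1-CKO mice.

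RNA-seq was performed on Tfh cells sorted from spleens, with 3 libraries from CTL and 3 from Prdm1-CKO mice. All were age-matched females of 6 to 8 weeks, immunized with the hapten conjugate NP-CGG in complete Freund's adjuvant (CFA), and their spleens were taken on day 7. Prdm1-CKO mice were Prdm1 fl/fl and carried CD11c-Cre. CTL mice were either Prdm1 fl/fl without CD11c-Cre or Prdm1 +/+ with CD11c-Cre, and the labels do not say which library came from which genotype. The CD11c promoter drives Cre in dendritic cells (DCs), so the sorted T cells were not the intended site of deletion of Prdm1, the gene of the transcriptional repressor BLIMP-1. Prdm1 lay between 27.5 and 30.9 CPM (read counts scaled to library size) in the 6 libraries, with a log2 fold change of 0.09 (standard error 0.19), and this level checks nothing about the deletion in DCs. In the labels, Prdm1-CKO libraries carry both the word knockout (title) and the word knockdown (genotype). Tfh cells were sorted as live TCRβ+CD4+CXCR5+PD1+ cells, and each library was taken as 1 mouse, although the labels speak of mice in the plural. P-values therefore measure only the spread between these libraries.

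Proteins of the Bcl2 family act on each other by binding. Anti-apoptotic members hold BAX and BAK in check, BH3-only members occupy the anti-apoptotic groove or activate BAX and BAK directly, and freed BAX and BAK form pores in the outer mitochondrial membrane. T cells are known to depend on BCL2 when resting, on MCL1 at most stages, and on BIM, the product of Bcl2l11, for their removal after an immune response. Transcript levels do not measure any of these protein states, and gene counts do not separate splice isoforms with opposite actions, such as the long and short forms of Bcl2l1 and Mcl1.

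Total counts lay between 7147601 and 16973392 per library. At these depths 3 counts, taken as the floor, amounted to 0.169 to 0.444 CPM. CTL replicate 2 stood apart from the other libraries. On the first principal component of log2 CPM, which held 56.4% of the variance, it lay at 134.6, and the other libraries lay between -29.1 and -24.0. The log2 fold changes of the named genes and the balance are therefore also given without it where they moved by over 1.5 times. Genes listed as Tfh markers were detected in every library, with a summed level of 10 markers between 3477 and 4518 CPM. Much of this sum came from the general T cell genes Cd4, Cd3e and Trac, at 896, 561 and 924 CPM in CTL replicate 1. Cxcr5 lay between 254 and 477 CPM and Bcl6 between 66.0 and 124 CPM. Cd4 was lower in every Prdm1-CKO library (774 to 847 CPM) than in every CTL library (896 to 1061 CPM). Markers of other cells were detected as well. The summed level of 10 macrophage markers ran from 2271 to 4889 CPM in CTL and from 3967 to 4801 CPM in Prdm1-CKO libraries. That of 7 dendritic cell markers ran from 787 to 2320 CPM and from 1955 to 3354 CPM. For 10 B cell markers it was 104 to 181 and 156 to 243 CPM, and for 6 plasma cell markers 482 to 735 and 735 to 941 CPM. For 5 regulatory T cell markers it was 856 to 951 and 770 to 880 CPM, and the sort markers given do not include FOXP3. For 8 CD8 and NK cell markers it was 227 to 300 and 202 to 228 CPM, and for 8 neutrophil markers 98.6 to 171 and 130 to 164 CPM. None of these markers was at 0 in all 6 libraries. CTL replicate 2 had the lowest macrophage, dendritic cell, B cell and plasma cell sums. Not every gene of these lists was lowest there. Ms4a1, Cd22 and Cr2 of the B cell list were instead lowest in CTL replicate 3. So were Irf4 of the plasma cell list and Mertk of the macrophage list. All other genes of these B cell, plasma cell and macrophage lists were lowest in CTL replicate 2. Cd22 alone was at 61.1 CPM in CTL replicate 2. The dendritic cell sum was mostly H2-Aa and Cd74, and these and Xcr1 were lowest in CTL replicate 2. Zbtb46 and Flt3, of the same list, were instead highest there, at 29.4 and 28.7 CPM. Itgax lay between the other libraries, and Siglech was near the floor. The part of these cells in the results was not tested. In such bulk samples, fewer cells that express a gene and less RNA per cell cannot be told apart.

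Bcl2a1b needed its sequence examined first, because reads of 25 bases cannot always be assigned to it. Mice carry several nearly identical Bcl2a1 genes on chromosome 9, which encode the anti-apoptotic protein A1. The start of the coding sequence shows how little separates them. The sequences are the first 120 coding bases, in exon 1, from GENCODE M21 on GRCm38, written 5′ to 3′ on the coding strand, with capitals at the 7 positions where the 3 genes differ.
Bcl2a1a, chr9:88957051-88957170, plus strand: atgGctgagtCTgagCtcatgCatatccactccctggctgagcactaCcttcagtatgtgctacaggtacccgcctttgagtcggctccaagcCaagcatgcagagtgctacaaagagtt
Bcl2a1b, chr9:89199360-89199479, plus strand: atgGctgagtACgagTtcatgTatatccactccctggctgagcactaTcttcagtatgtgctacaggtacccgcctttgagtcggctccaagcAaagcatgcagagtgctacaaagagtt
Bcl2a1d, chr9:88731600-88731719, minus strand: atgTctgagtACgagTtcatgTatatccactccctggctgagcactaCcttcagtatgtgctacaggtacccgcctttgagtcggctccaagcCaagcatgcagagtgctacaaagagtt

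Over the whole coding sequence of 519 bases, Bcl2a1a differed from Bcl2a1b at 11 positions (97.9% identity) and Bcl2a1d at 6 positions (98.8% identity). Long runs of lower case letters between the capitals are stretches where a 25-base read matches all 3 genes. Of the 793 different 25-base words in Bcl2a1b transcripts, 730 (92.1%) also occurred in transcripts of other genes, among them 618 in Bcl2a1d and 502 in Bcl2a1a. The transcripts of Gm29094, which overlap Bcl2a1b by 401 exonic bases on the same strand, shared 378 of its words and had 0 counts in all 6 libraries. Counts of Bcl2a1b alone are therefore uncertain, and the sum of the 3 genes is given beside them. The sum has a limit too. Whether reads that match several genes were dropped or counted more than once is not given, so the sum could be too low or too high.

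The other members were easier to place. Bbc3 shared none of its words with another gene, and Bcl2l1 (0.258%), Bcl2l11 (0.521%), Mcl1 (0.967%) and Pmaip1 (1.53%) shared few. Bcl2 shared 6.61%, mostly with D630008O14Rik on the opposite strand, which had 3 to 40 counts per library. Bax shared 12.6%, mostly with Gm45808, which had 0 counts in all 6 libraries. Bid shared 17.1%, all with the opposite-strand gene Bcl2l13, which had 418 to 1134 counts per library against 532 to 1505 for Bid itself. Bak1 shared 21.5%, nearly all with separate opposite-strand entries named Ggnbp1, which held 371 and 155 of the words. Counts were found under this name for a single entry, at 8 to 25 per library. Whether strand was used in counting is not given in the sources used here, so reads in these overlaps cannot be told apart between partners.

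**Figure D1:**
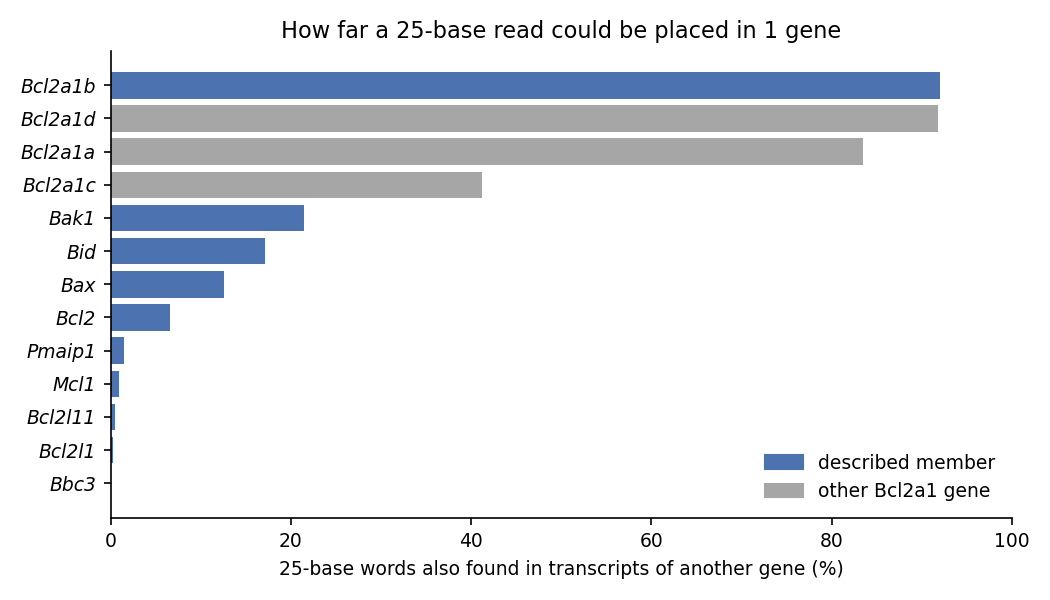
Share of the 25-base words in the transcripts of each gene, in percent, that also occur in transcripts of another gene. Bars in blue are the 10 members and bars in grey are other Bcl2a1 genes. Bcl2a1b stands at 92.1%, while the next member, Bak1, stands at 21.5%.

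To compare genes with each other, CPM were divided by exon length, and these levels are called CPM per kb. The order of genes depends on this division, which uses all annotated exons of a gene. In CTL Tfh cells, the most abundant members were Bax at 42.6 ± 9.89 CPM per kb (SD, n = 3) and Mcl1 at 40.2 ± 8.50. Next came Pmaip1 at 21.4 ± 11.8, Bid at 20.3 ± 2.31 and Bcl2a1b at 19.7 ± 2.75, then Bcl2l1 at 13.6 ± 2.399, Bcl2 at 10.1 ± 2.60 and Bcl2l11 at 4.95 ± 1.60. The lowest levels were those of Bak1 at 1.23 ± 0.22 and Bbc3 at 1.19 ± 0.60 CPM per kb. Among neighbours in this order, the ranges over the CTL libraries did not overlap between Bcl2a1b and Bcl2l1, between Bcl2 and Bcl2l11, and between Bcl2l11 and Bak1. All other neighbours overlapped. Bax lay above Mcl1 in only 1 of 3 CTL libraries, and Pmaip1 lay above Bid in 1 of 3, so these neighbours had no fixed order.

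In Prdm1-CKO Tfh cells the order was much the same. Bax stood first at 58.5 ± 2.74 CPM per kb (SD, n = 3), above Mcl1 at 40.6 ± 9.94 in all 3 libraries and without overlap of their ranges. This rests on the exon lengths of 1576 bases for Bax and 3418 for Mcl1. In CPM not divided by length, Mcl1 lay above Bax in every library of both groups. In Prdm1-CKO libraries these CPM were 130, 176 and 110 for Mcl1 and 95.7, 93.4 and 87.4 for Bax. Pmaip1 at 28.3 ± 2.68, Bcl2a1b at 24.6 ± 2.32 and Bid at 21.9 ± 1.70 followed, and the ranges of Pmaip1 and Bcl2a1b and of Bcl2a1b and Bid overlapped. Bcl2l1 was at 11.9 ± 0.97, Bcl2 at 7.97 ± 1.54 and Bcl2l11 at 4.82 ± 0.41 CPM per kb. Bbc3 at 1.72 ± 0.22 lay above Bak1 at 0.76 ± 0.24. Compared with CTL, only the neighbouring pairs Bid and Bcl2a1b, and Bak1 and Bbc3, changed places, and in CTL the ranges of both pairs overlapped.

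**Figure D2:**
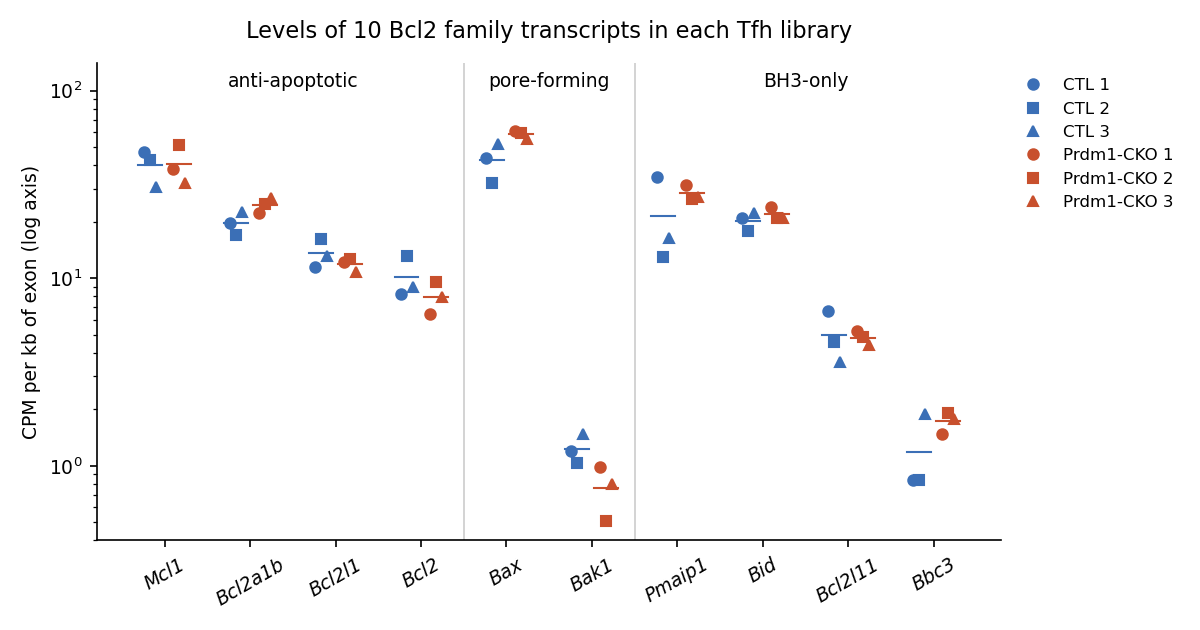
Level of each member in each library, in CPM per kb of exon on a log axis, with CTL in blue, Prdm1-CKO in orange, the replicate given by the symbol and the group mean by a bar. Bax and Mcl1 lie at the top in both groups, Bak1 and Bbc3 lie near 1 CPM per kb, and the 3 Prdm1-CKO libraries of Bax lie above the 3 CTL libraries.

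No member passed the test for a difference between Prdm1-CKO and CTL Tfh cells. In edgeR's quasi-likelihood test with Benjamini-Hochberg adjustment over all 14555 genes, 0 of 10 members had an adjusted p under 0.05, and 0% of all genes did. At an unadjusted p under 0.05 the count was also 0 of 10 members, against 2.35% of all genes. By DESeq2's Wald test the count of members was 0 at both thresholds. The log2 fold change was above 0 for 6 members and below 0 for 4, with a median of 0.06 against 0.01 over all genes tested. The groups did not overlap for 2 members, Bax (higher in Prdm1-CKO, as for 4.56% of all genes) and Bak1 (lower, as for 3.86%). With 3 libraries against 3, an exact permutation test of a single gene cannot go below p = 0.1. Below, the values are taken by role, as CPM for libraries 1, 2 and 3 of each group, and by edgeR the adjusted p was 0.998 for Mcl1, 0.997 for Bcl2l11 and 0.996 for each of the other members.

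Among the anti-apoptotic genes, Bcl2 encodes the founding survival factor of the family (chr1:106538178-106714274, minus strand, GRCm38). Bcl2 was at 75.6, 119.8 and 82.1 CPM in CTL and at 59.1, 87.3 and 72.6 CPM in Prdm1-CKO libraries. CTL replicate 2 was the highest of all, and the groups overlapped. The means were 92.5 ± 23.9 and 73.0 ± 14.1 CPM (SD, n = 3), with a log2 fold change of -0.34 (standard error 0.23, 95% interval -0.88 to 0.20). Without CTL replicate 2 the log2 fold change was -0.12.

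Bcl2l1, which encodes BCL-XL (chr2:152780668-152831728, minus strand), was at 52.6, 74.3 and 60.1 CPM in CTL and at 55.8, 58.4 and 49.7 CPM in Prdm1-CKO libraries. Again CTL replicate 2 was the highest library, and the other libraries of both groups lay within 49.7 to 60.1 CPM. The log2 fold change was -0.19 (standard error 0.19, 95% interval -0.63 to 0.25), and -0.05 without CTL replicate 2.

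Mcl1, the short-lived survival factor that binds BIM and NOXA (chr3:95658788-95663176, plus strand), had the highest level per length of the 4 anti-apoptotic members. It was at 161.5, 145.3 and 105.1 CPM in CTL and at 130.3, 176.3 and 110.0 CPM in Prdm1-CKO libraries. The groups ran over much the same range, with means of 137 ± 29.1 and 139 ± 34.0 CPM (SD, n = 3). Its log2 fold change was 0.01 (standard error 0.23, 95% interval -0.51 to 0.54), or 0.05 without CTL replicate 2, and the sign turned in 2 of the 6 fits that left out 1 library.

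Bcl2a1b (chr9:89199209-89207827, plus strand) encodes a form of A1, an NF-κB target induced in activated lymphocytes. It was at 16.0, 13.9 and 18.3 CPM in CTL and at 18.1, 20.4 and 21.8 CPM in Prdm1-CKO libraries. CTL replicate 3 lay just above Prdm1-CKO replicate 1, so the groups overlapped. Alone, Bcl2a1b had a log2 fold change of 0.32 (standard error 0.24, 95% interval -0.24 to 0.88). Because of the shared sequence shown above, the counts of Bcl2a1a, Bcl2a1b and Bcl2a1d were also summed. The sum was at 46.4, 32.1 and 47.6 CPM in CTL and at 48.9, 52.2 and 52.3 CPM in Prdm1-CKO libraries. Here every Prdm1-CKO library lay above every CTL library, with CTL replicate 2 well below the rest, and the log2 fold change was 0.28 (standard error 0.21, 95% interval -0.20 to 0.76). In a fit added after these values were seen, the sum had a log2 fold change of 0.11 without CTL replicate 2. Of the summed reads, Bcl2a1b took between 34.5% and 43.2%, Bcl2a1d between 44.0% and 49.4%, and Bcl2a1a between 7.38% and 18.7%.

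Bax, whose protein moves from the cytosol to mitochondria and forms pores there (chr7:45461697-45466898, minus strand), had the smallest unadjusted p of the members. It was at 69.2, 50.7 and 81.7 CPM in CTL and at 95.7, 93.4 and 87.4 CPM in Prdm1-CKO libraries. Every Prdm1-CKO library lay above every CTL library, and CTL replicate 2 was the lowest. The means were 67.2 ± 15.6 and 92.2 ± 4.31 CPM (SD, n = 3). Bax thus had a log2 fold change of 0.46 (standard error 0.20, 95% interval -0.01 to 0.92, unadjusted p = 0.053 and adjusted p = 0.996 by edgeR). Without CTL replicate 2 it was 0.28 (unadjusted p = 0.14 by edgeR), still without overlap between the groups, and without CTL replicate 3 it was 0.63 (unadjusted p = 0.015 by edgeR). Over 13 fits, including those with other tools or filters and with libraries left out, the log2 fold change of Bax ran from 0.28 to 0.63 and its lowest adjusted p was 0.737. CTL replicate 2 also had the lowest marker sums of macrophages, B cells and plasma cells, though not every gene of these lists was lowest there. Its dendritic cell marker sum, mostly H2-Aa and Cd74, was the lowest too. The part of these sums in the level of Bax was not tested.

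Bak1 encodes BAK, the other pore-forming effector, which resides in the mitochondrial membrane. Its counts were low, at 42, 21 and 24 in CTL and 42, 12 and 28 in Prdm1-CKO libraries, or 2.88, 2.49 and 3.55 CPM against 2.37, 1.22 and 1.92 CPM. Every Prdm1-CKO library lay below every CTL library, but the highest Prdm1-CKO value and the lowest CTL value were close, and the exact 95% Poisson intervals of these libraries, which cover counting error only, were 1.71 to 3.20 CPM and 1.54 to 3.803 CPM. The log2 fold change was -0.68 (standard error 0.55, 95% interval -1.94 to 0.58). Bak1 also shares a 614-base exon overlap with the entries named Ggnbp1, added over both.

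The BH3-only genes showed no lack of overlap between groups. Bcl2l11, which encodes BIM (chr2:128126038-128162547, plus strand), was at 53.8, 36.7 and 28.7 CPM in CTL and at 41.8, 39.0 and 35.2 CPM in Prdm1-CKO libraries. All Prdm1-CKO values lay inside the CTL range. Its log2 fold change was -0.04 (standard error 0.26, 95% interval -0.64 to 0.55), or -0.11 without CTL replicate 2, and its sign turned in 2 of the 6 fits that left out 1 library.

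Bid, which links death receptor signaling to mitochondria once caspase-8 cleaves its protein (chr6:120891930-120916853, minus strand), was at 74.2, 63.0 and 79.0 CPM in CTL and at 84.8, 74.2 and 74.5 CPM in Prdm1-CKO libraries. It was the member with the least spread relative to its level in CTL. The log2 fold change was 0.11 (standard error 0.17, 95% interval -0.27 to 0.50), and 0.01 without CTL replicate 2.

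Bbc3 and Pmaip1 encode PUMA and NOXA, both induced by p53, with NOXA acting mainly on MCL1 and A1. Bbc3 (chr7:16308393-16318205, plus strand) was counted 26, 15 and 27 times in CTL and 56, 40 and 55 times in Prdm1-CKO libraries, or 1.78, 1.78 and 3.995 CPM against 3.16, 4.07 and 3.77 CPM. CTL replicate 3 lay within the Prdm1-CKO range and the other CTL libraries lay below it. The log2 fold change was 0.55 (standard error 0.55, 95% interval -0.72 to 1.82), 1.04 without CTL replicate 3 and 0.35 without CTL replicate 2.

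Pmaip1 varied most among CTL libraries. It was at 95.2, 35.3 and 44.8 CPM in CTL and at 85.8, 72.3 and 74.2 CPM in Prdm1-CKO libraries. CTL replicate 1 was the highest of all libraries and the other CTL libraries were the lowest, so the result depended on which CTL libraries were used. For Pmaip1 the log2 fold change was 0.40 (standard error 0.35, 95% interval -0.40 to 1.20) with all libraries, 0.94 without CTL replicate 1 (unadjusted p = 0.0036 and adjusted p = 0.669 by edgeR) and 0.13 without CTL replicate 2. The macrophage marker sum had the same order among CTL libraries, at 4889, 2271 and 3488 CPM, and was 4717, 3967 and 4801 CPM in Prdm1-CKO libraries. Its part in the level of Pmaip1 was not tested.

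**Figure D3:**
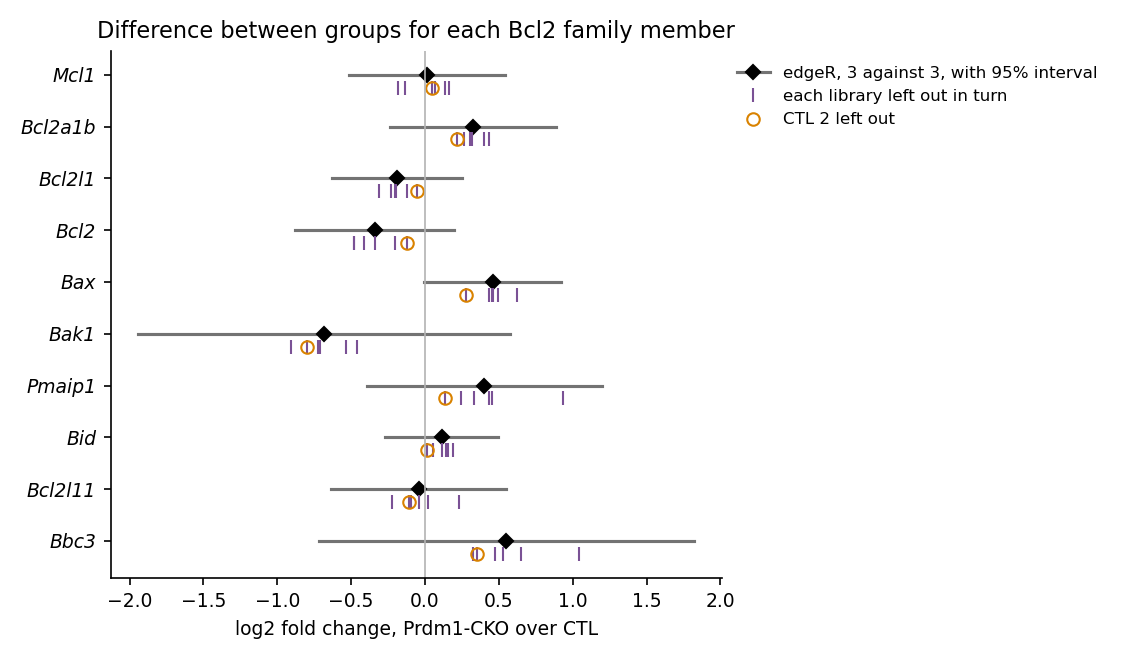
Log2 fold change of each member in Prdm1-CKO over CTL Tfh cells by edgeR (diamonds, with 95% intervals as lines) and with each library left out in turn (ticks, with an open circle where CTL replicate 2 was left out). Every interval includes 0, that of Bax only just (-0.01 to 0.92), and the values without CTL replicate 2 lie nearer to 0 for every member except Mcl1, Bak1 and Bcl2l11.

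The balance was then computed in each library as the log2 ratio of the summed CPM per kb of the 4 anti-apoptotic members over that of pro-apoptotic members. It is given as a description with no test, since the members were a chosen list. Over all 6 pro-apoptotic members the ratio was -0.32, 0.36 and -0.37 in CTL and -0.65, -0.20 and -0.51 in Prdm1-CKO libraries. On a linear scale this ran from 0.638 to 1.28. Pro-apoptotic transcripts exceeded anti-apoptotic ones in 5 of 6 libraries by this measure, with CTL replicate 2 as the exception, but this direction depended on how the sum was formed. With Bcl2a1a, Bcl2a1b and Bcl2a1d summed in place of Bcl2a1b, the ratio was 0.17, 0.67 and 0.17 in CTL and -0.10, 0.26 and 0.04 in Prdm1-CKO libraries. The anti-apoptotic side was thus higher in 5 of 6, with the uncertainty of the summed counts given above. This side was also higher in 6 of 6 with members weighted equally and in 4 of 6 with levels not divided by length. With Bcl2a1b alone, the means were -0.11 ± 0.41 in CTL and -0.45 ± 0.23 in Prdm1-CKO Tfh cells (SD, n = 3), and the groups overlapped. The difference of -0.34 was -0.11 without CTL replicate 2.

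Over Bax and Bak1 alone the log2 ratio was 0.94, 1.42 and 0.50 in CTL and 0.35, 0.73 and 0.47 in Prdm1-CKO libraries. Anti-apoptotic transcripts exceeded the effectors in all 6 libraries, and Prdm1-CKO replicate 2 lay above CTL replicate 3. The difference of the means was -0.44, and -0.20 without CTL replicate 2. It turned to 0.08 when members were weighted equally by their mean log2 level, since Bak1 then counted as much as Bax. Without Mcl1 in the anti-apoptotic sum the log2 ratio over Bax and Bak1 was -0.20, 0.48 and -0.26 in CTL and -0.60, -0.34 and -0.31 in Prdm1-CKO libraries, and the groups no longer overlapped, though CTL replicate 3 and Prdm1-CKO replicate 3 lay close together. Over the 4 BH3-only members the ratio was 0.45, 1.30 and 0.77 in CTL and 0.35, 0.87 and 0.52 in Prdm1-CKO libraries. The groups overlapped here too, and the difference of -0.26 was -0.03 without CTL replicate 2.

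**Figure D4:**
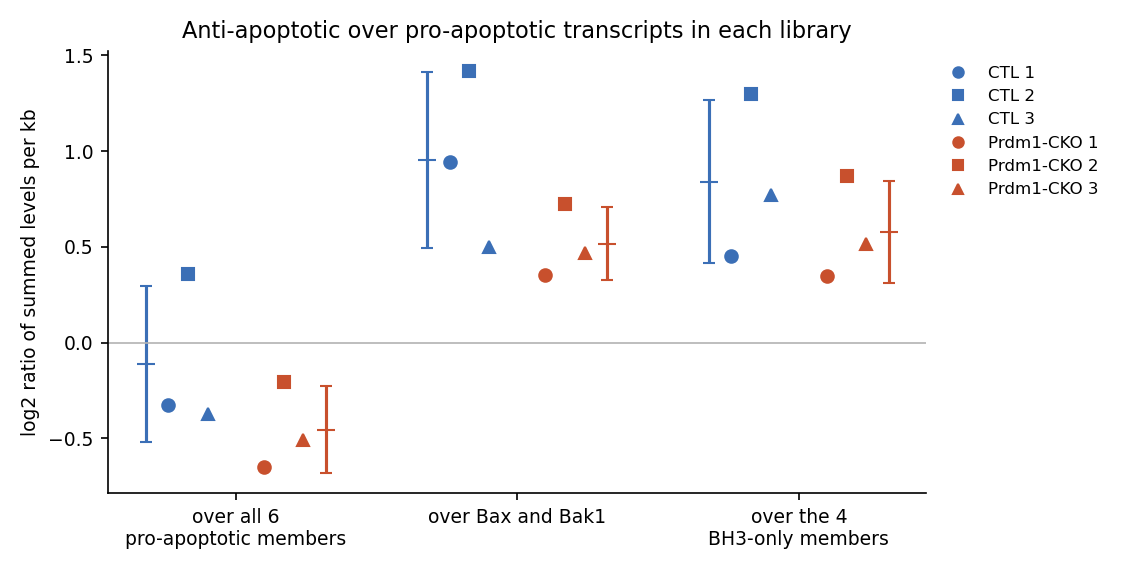
Log2 ratio of the summed CPM per kb of Bcl2, Bcl2l1, Mcl1 and Bcl2a1b over that of all 6 pro-apoptotic members, of Bax and Bak1, and of the 4 BH3-only members, in each library, with the mean and SD of each group beside the points. CTL replicate 2 is the highest point in all 3 ratios, at 0.36, 1.42 and 1.30, and the groups overlap in each.

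The sums behind these ratios showed where the libraries differed. The anti-apoptotic sum was 86.6, 88.8 and 75.3 CPM per kb in CTL and 78.9, 98.9 and 77.7 CPM per kb in Prdm1-CKO libraries, with overlapping groups. The effector sum was 45.1, 33.2 and 53.3 CPM per kb in CTL and 61.7, 59.8 and 56.2 CPM per kb in Prdm1-CKO libraries, where each Prdm1-CKO library lay above each CTL library. This sum consisted almost wholly of Bax. The BH3-only sum was 63.3, 36.1 and 44.1 CPM per kb in CTL and 62.0, 54.1 and 54.3 CPM per kb in Prdm1-CKO libraries, with overlapping groups, and followed Pmaip1 in placing CTL replicate 1 highest and CTL replicate 2 lowest.

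Mcl1 made up between 40.8% and 54.6% of the anti-apoptotic sum, Bcl2a1b between 19.1% and 34.4%, Bcl2l1 between 12.9% and 18.2% and Bcl2 between 8.18% and 14.7%. Among these 4 members Mcl1 was the highest and Bcl2 the lowest in every library. The sum of Bcl2a1a, Bcl2a1b and Bcl2a1d, however, was at 55.4, 38.2 and 56.8 CPM per kb in CTL and at 58.3, 62.2 and 62.5 CPM per kb in Prdm1-CKO libraries. It lay above Mcl1 in 5 of 6 libraries, all but CTL replicate 2, but could be too high or too low where reads matched several genes. Of the pro-apoptotic sum, Bax made up between 40.5% and 53.2%, Pmaip1 between 16.8% and 32.2%, Bid between 18.3% and 25.6%, and Bcl2l11 between 3.67% and 6.60%. Bbc3 (0.774% to 1.93%) and Bak1 (0.445% to 1.51%) were minor in every library. The share of Bak1 was 1.10%, 1.49% and 1.51% in CTL and 0.795%, 0.445% and 0.721% in Prdm1-CKO libraries, on the low counts given above. Bak1 was lower and the pro-apoptotic sum higher in every Prdm1-CKO library than in every CTL library, so this share could not overlap.

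**Figure D5:**
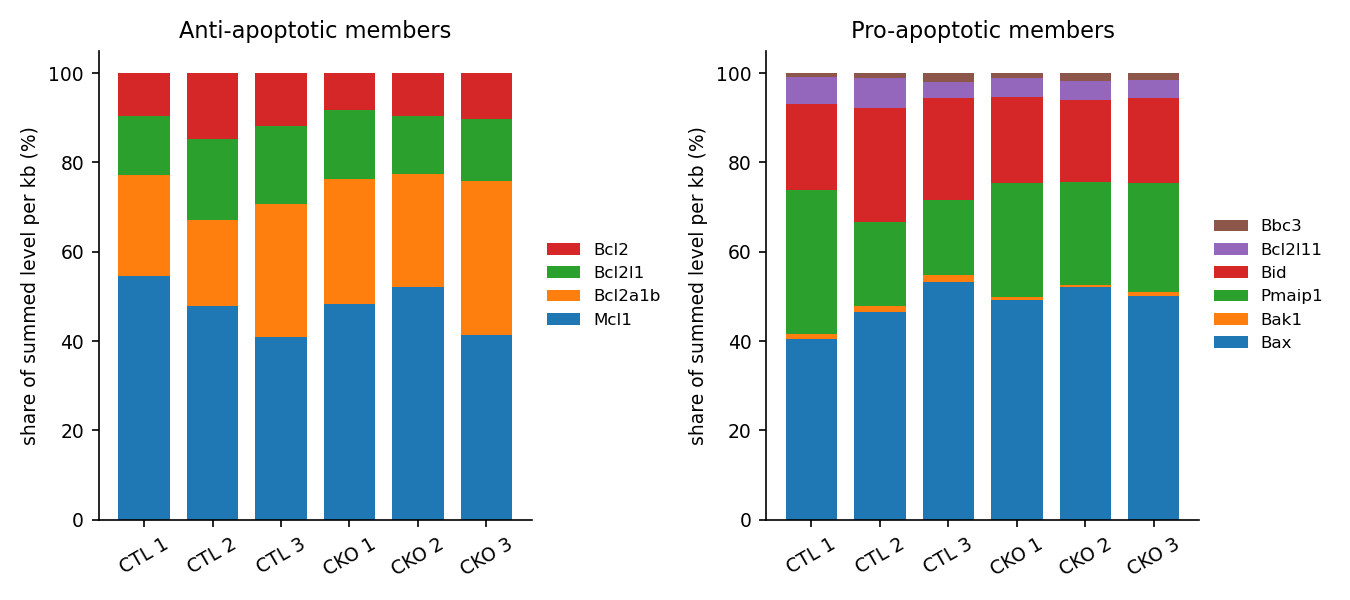
Make-up of the anti-apoptotic sum (left) and of the pro-apoptotic sum (right) in each library, as percent of the summed CPM per kb. Mcl1 holds 40.8% to 54.6% of the anti-apoptotic sum and Bax 40.5% to 53.2% of the pro-apoptotic sum, while Bak1 stays at or below 1.51%.

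Ratios were also taken within pairs of genes whose proteins bind each other or act side by side. These 7 pairs were chosen after values of these data were known. Bcl2 over Bax was at log2 ratios of -2.41, -1.30 and -2.53 in CTL and -3.24, -2.64 and -2.81 in Prdm1-CKO libraries. Each Prdm1-CKO ratio lay below each CTL ratio. Bax exceeded Bcl2 per length in all 6 libraries, which rests on exon lengths of 1576 and 9157 bases. In CPM not divided by length, Bcl2 lay above Bax in every CTL library, at 75.6, 119.8 and 82.1 against 69.2, 50.7 and 81.7. It lay below Bax in every Prdm1-CKO library, at 59.1, 87.3 and 72.6 against 95.7, 93.4 and 87.4 CPM. Bcl2l1 over Bax was at -1.94, -0.99 and -1.98 against -2.32, -2.22 and -2.35, also without overlap. Both ratios hold Bax, and CTL replicate 2 lay about 1 log2 unit above the other CTL libraries in each. Bax over Bak1 was at 5.20, 4.96 and 5.13 in CTL and at 5.95, 6.87 and 6.12 in Prdm1-CKO libraries, without overlap. Bax was higher and Bak1 lower in every Prdm1-CKO library, so this ratio could not overlap and adds no result. It also rests on the low counts of Bak1.

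Pairs with the BH3-only genes overlapped between the groups. Mcl1 over Pmaip1 was at 0.44, 1.72 and 0.91 in CTL and 0.28, 0.96 and 0.24 in Prdm1-CKO libraries, with Mcl1 above Pmaip1 in all 6. Mcl1 over Bcl2l11 differed by 0.01 between the group means, Bcl2 over Bcl2l11 by -0.34 and Bcl2a1b over Pmaip1 by -0.21. The last pair lay on both sides of 0, at -0.83, 0.39 and 0.45 in CTL and at -0.50, -0.08 and -0.02 in Prdm1-CKO libraries.

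Other genes of the apoptotic machinery were taken from 7 lists with 55 genes, of which 50 were tested. By edgeR 0 of 50 passed an adjusted p of 0.05 and 0 an unadjusted p of 0.05, with log2 fold changes above 0 for 27 and below 0 for 23 and a median of 0.01. The groups did not overlap for 2 genes, both higher in Prdm1-CKO libraries (background 4.56%), and for 0 genes in the other direction (background 3.86%). They were Fadd, the adaptor that joins death receptors to caspase-8, and Birc5, which encodes survivin, an inhibitor of apoptosis protein needed in cell division and named here after its values were seen. Fadd was at 17.1, 12.4 and 21.5 CPM in CTL and at 25.1, 21.7 and 23.6 CPM in Prdm1-CKO libraries (log2 fold change 0.46, standard error 0.27). Without CTL replicate 2 its log2 fold change was 0.27, and without CTL replicate 3 it was 0.67 (unadjusted p = 0.043 and adjusted p = 0.760 by edgeR). Birc5 was at 80.6, 94.4 and 113 CPM against 122, 126 and 122 CPM (log2 fold change 0.36, standard error 0.17), and its log2 fold change was 0.23 without CTL replicate 1 and 0.50 without CTL replicate 3 (unadjusted p = 0.014 and adjusted p = 0.760 by edgeR).

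Among the remaining anti-apoptotic relatives, Bcl2l2, which encodes BCL-W, was at 3.40 ± 0.86 CPM in CTL and 3.22 ± 0.51 CPM in Prdm1-CKO Tfh cells (SD, n = 3), with a log2 fold change of -0.085, or -0.21 without CTL replicate 2. Bcl2a1a and Bcl2a1d, the near copies of Bcl2a1b, had log2 fold changes of 0.41 (standard error 0.51) and 0.20 (standard error 0.24), which were 0.031 and 0.046 without CTL replicate 2. Bcl2a1c had at most 8 counts in a library and was not tested. Bcl2l10 had 0 counts in all libraries, which allows up to 0.169 to 0.444 CPM, depending on the library.

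Of the other pro-apoptotic relatives, Bad, a BH3-only gene whose protein is held inactive by phosphorylation, was at 22.4, 7.70 and 30.04 CPM in CTL and at 22.6, 18.2 and 19.5 CPM in Prdm1-CKO libraries. CTL replicate 2 was again the lowest, and the log2 fold change of 0.0071 was -0.39 without it. Bmf, a BH3-only gene linked to the cytoskeleton, was counted 116, 0 and 56 times in CTL and 133, 84 and 112 times in Prdm1-CKO libraries, so it was at 0 in CTL replicate 2 only, and its log2 fold change of 0.54 (standard error 1.05) was -0.049 without that library. Bik was counted 0, 0 and 20 times in CTL and 8, 16 and 15 times in Prdm1-CKO libraries, with a log2 fold change of 0.14 (standard error 1.53), or -0.47 without CTL replicate 2. Hrk had 0 counts in all libraries and Bok had 4 counts in Prdm1-CKO replicate 1 and none elsewhere.

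Among Bcl2-related genes, Bcl2l13, a mitophagy receptor, was at 73.5, 107.6 and 61.8 CPM in CTL and at 63.9, 56.0 and 61.8 CPM in Prdm1-CKO libraries (log2 fold change -0.42, standard error 0.23), with CTL replicate 2 the highest, and the log2 fold change was -0.17 without it. The mitophagy receptor gene Bnip3l had a log2 fold change of 0.35 (standard error 0.25) and Bnip3 one of 0.60 (standard error 0.68) at 2.13 ± 1.39 CPM in CTL, which were 0.12 and 0.14 without CTL replicate 2. Vdac2, an outer membrane channel that binds BAK, was at 153 ± 7.60 CPM in CTL and 155 ± 15.8 CPM in Prdm1-CKO Tfh cells. Bcl2l12, Bcl2l14 and Bcl2l15 had log2 fold changes of -0.22, -0.31 and 1.06, with standard errors of 0.40, 0.47 and 1.08, and 0.037, -0.041 and 0.47 without CTL replicate 2.

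Downstream of mitochondria, the apoptosome and caspase genes ran from a log2 fold change of -0.25 for Apaf1, the apoptosome scaffold, to 0.57 for Casp9, its initiator caspase (8 of 8 tested, 5 above 0). The caspase inhibitors and their antagonists ran from -0.47 for Birc6 to 0.40 for Htra2 (7 of 7 tested, 4 above 0). Death receptor genes ran from -0.48 for Tnfrsf10b, which encodes the mouse TRAIL receptor, to the 0.46 of Fadd (7 of 7 tested, 2 above 0). Regulators of the family ran from -0.47 for Huwe1, a ubiquitin ligase that acts on MCL1 (standard error 0.23), to 0.44 for Cdkn1a, a p53 target (standard error 0.34). Of these regulators, 15 of 16 were tested and 7 lay above 0. Cdkn1a was at 20.5, 10.1 and 10.4 CPM in CTL and at 20.2, 18.1 and 17.7 CPM in Prdm1-CKO libraries. This is the same split of CTL replicate 1 from the other CTL libraries as in Pmaip1. The split was not confined to p53 targets, and the macrophage marker Csf1r was at 827, 319 and 386 CPM in CTL libraries. Bbc3, also induced by p53, had no such split, at 1.78, 1.78 and 3.995 CPM in CTL libraries. Neither had Mdm2 of the same list, at 136, 131 and 82.0 CPM, nor Bax, at 69.2, 50.7 and 81.7 CPM. Without CTL replicate 2 the log2 fold changes were -0.13 for Apaf1, -0.14 for Birc6, 0.099 for Htra2, -0.84 for Tnfrsf10b, -0.28 for Huwe1 and 0.26 for Cdkn1a. The likeness of Cdkn1a and Pmaip1 was seen after the values were known and was not tested.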

How the data were processed

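RNA-seq was analysed for Tfh cells of 3 CTL and 3 Prdm1-CKO mice. The authors made Smart-seq2 libraries, sequenced paired reads of 25 bp, aligned them (STAR 2.4.2a and GRCm38.p6 per the submitters' processing notes, which also name DESeq2) and counted reads per gene with featureCounts. They deposited raw counts without normalization, 1 file per library. Strandedness, multi-mapped reads and the counting of mates are not given in the sources used here.

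Identifiers without version were matched to GENCODE M21 (53274 of 53379, 50604 in the same version). Coordinates are given only for the 8 members in the same version. Under R 4.3.3, counts were tested with edgeR 4.0.16 after TMM scaling and filterByExpr, by the two-sided quasi-likelihood F test without a covariate, adjusted by Benjamini-Hochberg over 14555 genes. Levels are CPM with TMM factors, and levels per kb use the union of exons. The floor is 3 counts and covers counting error only. Word sharing counts the 25-base words of a gene's transcripts, on either strand, that occur in other genes.

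The members and lists were chosen with earlier results of these data known. Named genes are all members, all tested Bcl2 relatives, and in each further list those at an unadjusted p under 0.05 or, with none, the highest and lowest log2 fold change. Alternatives were DESeq2's size factors, DESeq2 1.42.0, voom with quality weights (limma 3.58.1), no filter, at least 10 counts in every library, the replicate block, 4 other forms of the balance, summed Bcl2a1 counts and each library left out. The summed counts without CTL replicate 2 were added after seeing the data. The edgeR, DESeq2 and voom steps were tested on simulated data. No library was left out of the main test.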

Additional observations from a re-analysis of the deposited data

How the results depend on the processing

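Of the alternative log2 fold changes of the 10 members, 116 kept their direction and side of the threshold and 6 did not. The 6 were those of Mcl1, at -0.15 with voom, and of Bcl2l11, at 0.0024 with the replicate block, together with 2 fits for each gene that left out 1 library. With each library left out, log2 fold changes ran from -0.18 to 0.16 for Mcl1 and from -0.22 to 0.23 for Bcl2l11. The cause was not tested. For the other members these ranges were -0.48 to -0.12 for Bcl2, -0.31 to -0.05 for Bcl2l1, 0.22 to 0.43 for Bcl2a1b (0.11 with the 3 genes summed and without CTL replicate 2, a fit chosen after seeing the data), 0.28 to 0.63 for Bax, -0.90 to -0.46 for Bak1, 0.01 to 0.19 for Bid, 0.33 to 1.04 for Bbc3 and 0.13 to 0.94 for Pmaip1.

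The count of members higher at an unadjusted p under 0.05 was 1 (Bax) with voom, without a filter and with at least 10 counts in every library, and 0 to 1 with libraries left out (Pmaip1 without CTL replicate 1, Bax without CTL replicate 3). Over all genes, 0 passed an adjusted p of 0.05 in edgeR, 9 in DESeq2 and 1 without a filter. By unadjusted p under 0.05, edgeR called 135 higher and 207 lower, with 264 and 417 in DESeq2, 268 higher with voom, 426 and 510 without a filter, and 58 to 580 and 107 to 617 with libraries left out. Among the 50 other apoptosis genes, voom called 1 higher and 1 lower, no filter 1 lower, and leaving out libraries 0 to 3 higher and 0 to 4 lower.

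Of the other named genes, Bad turned to -0.055 with voom. With libraries left out, the log2 fold changes that crossed 0 ran from -0.39 to 0.41 for Bad, from -0.21 to 0.13 for Bcl2l2, from -0.049 to 0.96 for Bmf, from -0.54 to 6.75 for Bik, from -0.43 to 0.037 for Bcl2l12, from -0.051 to 0.10 for Vdac2, from -0.57 to 0.016 for Apaf1 and from -0.87 to 0.27 for Tnfrsf10b. Values of Bik without CTL replicate 3 rest on CTL libraries at 0 counts and are no bound. With the Bcl2a1 genes summed, the balance over all pro-apoptotic members was above 0 in 5 of 6 libraries, against 1 of 6 with Bcl2a1b alone. The difference over Bax and Bak1 was 0.083 with members weighted equally. With libraries left out, the balance differences ran from -0.47 to -0.11 over all pro-apoptotic members, from -0.66 to -0.20 over effectors and from -0.46 to -0.03 over BH3-only members.

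The residuals of same-numbered libraries correlated at 0.158, 0.028 and 0.016, against a mean of -0.033 for differently numbered pairs. So few values cannot decide whether the replicate numbers pair the libraries, and the labels do not say. With the replicate block, 175 genes were called higher and 196 lower by unadjusted p, and 0 members were called.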

Other observations

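Most genes tested, and most members with them, had a smaller spread among Prdm1-CKO than among CTL libraries. On the log2(CPM + 1) scale the SD was smaller in Prdm1-CKO than in CTL libraries for 8 of 10 members, the exceptions being Mcl1 and Bak1, against 76.0% of all genes tested. The median SD over the members was 0.33 in CTL and 0.13 in Prdm1-CKO libraries, and over all genes it was 0.40 and 0.23. Without CTL replicate 2 the count was 6 of 10 members against 55.8% of all genes, and the median SD of the members in CTL was 0.17. The CTL SD then rests on fewer libraries than the Prdm1-CKO SD, so these are not like measures.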
